A study of Mus musculus with 32 samples.

Results

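The proximal stretch of mouse chromosome 15 was followed through 769 exon-level probe sets of 54 genes, out of 188590 probe sets on the array. A probe set here is a small group of short probes that reads 1 stretch of an exon. Members were all probe sets annotated with exactly 1 gene symbol whose gene starts below 30 Mb on chromosome 15 in the RefSeq annotation of GRCm38, leaving out 10 named genes (Drosha, Nipbl, Cdh6, Cdh9, Cdh10, Cdh12, Cdh18, Slc1a3, Myo10 and Selenop). The genes run from Ghr to Dnah5 in order of their start, with 1 to 86 probe sets each (median 10.5). In the authors' gene-level summary, 50 of them also had a feature annotated with exactly 1 symbol. Features there with several symbols (1019) or none (740) were not matched to genes. Hippocampal RNA of 8 Sicd2-ISCL4 subcongenic mice (ISCL4 mice) was compared with that of 8 FVB-like littermates, with 1 array per mouse. All mice were male and aged 6 to 8 weeks, the hippocampi of each mouse were combined, and the labels name no seizure, drug or other treatment in either group. The labels give neither the donor strain nor the borders of the ISCL4 segment, so whether these genes lie inside it was not tested. They also do not say how many ISCL4 founders or litters the 8 mice came from.

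A subcongenic line carries a short chromosomal piece of a donor strain on the background of a host strain, here FVB. The name Sicd2 stands for a locus for seizure-induced cell death on chromosome 15. Genes inside such a piece can carry donor alleles that alter how much RNA is made or how it is spliced. Probe sequences were not checked against strain variants. Whether a difference at a single probe set reflects RNA amount, splicing or probe binding was not tested. The proximal part of chromosome 15 holds receptors of the growth hormone and interleukin 6 families, terminal complement genes, signalling proteins of neurons such as Trio, and housekeeping genes of the nucleus and ribosome.

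3 promoters are shown because their genes carried the leading values: Sub1 had the smallest p of any member probe set, Trio the smallest p at gene level, and Osmr the most probe sets with an unadjusted p under 0.05. Each runs 5′ to 3′ on the minus strand, from 250 bases before to 50 bases after the gene's start, taken from RefSeq (GRCm38.p6). Capitals mark every match, on either strand, to 4 motifs: the GC box GGGCGG, the CCAAT box CCAAT, the TATA box TATAAA and the E box CACGTG. The Sub1 sequence lies at chr15:11995958-11996257, the Trio sequence at chr15:28025799-28026098 and the Osmr sequence at chr15:6874264-6874563.
Sub1: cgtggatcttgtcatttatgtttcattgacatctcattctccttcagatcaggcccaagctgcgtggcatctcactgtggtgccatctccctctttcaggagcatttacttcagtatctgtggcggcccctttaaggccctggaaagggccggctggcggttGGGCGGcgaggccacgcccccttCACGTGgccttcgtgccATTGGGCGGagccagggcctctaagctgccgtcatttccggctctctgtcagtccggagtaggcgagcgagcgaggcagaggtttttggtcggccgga
Trio: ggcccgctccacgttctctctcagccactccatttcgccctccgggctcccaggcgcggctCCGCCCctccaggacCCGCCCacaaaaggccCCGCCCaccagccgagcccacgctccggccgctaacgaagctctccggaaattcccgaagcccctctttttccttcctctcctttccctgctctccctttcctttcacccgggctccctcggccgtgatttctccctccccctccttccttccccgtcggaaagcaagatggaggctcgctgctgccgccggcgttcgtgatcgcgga
Osmr: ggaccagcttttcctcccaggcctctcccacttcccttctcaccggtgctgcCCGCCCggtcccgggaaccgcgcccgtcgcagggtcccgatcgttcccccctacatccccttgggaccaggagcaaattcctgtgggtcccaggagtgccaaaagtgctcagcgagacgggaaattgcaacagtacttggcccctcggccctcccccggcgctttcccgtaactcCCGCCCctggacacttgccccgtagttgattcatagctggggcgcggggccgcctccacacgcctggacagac
Sub1 held 2 GC boxes, 1 CCAAT box and 1 E box, with the CCAAT box and the second GC box overlapping in 1 capital run. Trio held 3 GC boxes and Osmr held 2. Among 32851 promoters of the same length, 35.7% held a GC box, 37.4% a CCAAT box, 13.6% a TATA box and 7.15% an E box. Among the 63 of member genes, these shares were 47.6%, 36.5%, 11.1% and 6.35%. The arrays read RNA and not these bases, so a match is a description of the sequence only.

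Arrays were alike in overall signal, with medians of 7.74 to 7.78 on the log2 scale at exon level and 7.29 to 7.34 at gene level, and no pair of arrays held identical values. Replicates 1 to 4 and replicates 5 to 8 of both groups follow different naming schemes of the array files, called array set A and array set B here, and what separates the sets is not given in the sources used here. Between the sets, 31.9% of member probe sets differed at an adjusted p under 0.05 against 38.7% of all probe sets, so array set was a term in the fits reported here, and the alternatives without it are given with the processing. The mean of 6 neuronal markers lay between 11.1 and 11.3 on the log2 scale in both groups. No marker gene of the 7 lists of cell and tissue types was called. All 5 measured oligodendrocyte markers had lower values in ISCL4 mice (median difference -0.37), as did all 6 meningeal markers (-0.17), all 5 choroid plexus markers (-0.19) and all 5 striatal markers (-0.19). The mean of the oligodendrocyte list ranged from 9.50 to 10.2 over FVB-like mice and from 9.10 to 9.90 over ISCL4 mice. The meningeal mean ranged from 7.64 to 8.27 and from 7.55 to 8.11, the choroid plexus mean from 7.65 to 9.22 and from 7.44 to 9.43, and the striatal mean from 7.57 to 8.72 and from 7.28 to 8.07. Groups overlapped in all 4 lists, and their part in the values below was not tested. In whole tissue, fewer cells of a type and less RNA per cell cannot be told apart.

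No member probe set differed between ISCL4 mice and their littermates after adjustment, while probe sets of the left-out genes are given further below. With limma and Benjamini-Hochberg adjustment over the whole table, 0 of 769 members had an adjusted p under 0.05, where 47 of all 188590 probe sets did (0.0249%). The smallest adjusted p of a member was 0.084, in Sub1. At an unadjusted p under 0.05 there were 100 members (13.0%), 48 higher and 52 lower in ISCL4 mice, against 10.2% of all probe sets (5.16% higher and 5.07% lower). The fitted differences, always ISCL4 minus FVB-like and in log2 units, were centred near 0: 396 members (51.5%) were above 0, with a median of 0.0034 against 0.0037 over all probe sets. The 5th and 95th percentiles of the members' differences were -0.30 and 0.35, against -0.29 and 0.30 over all probe sets.

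**Figure D1:**
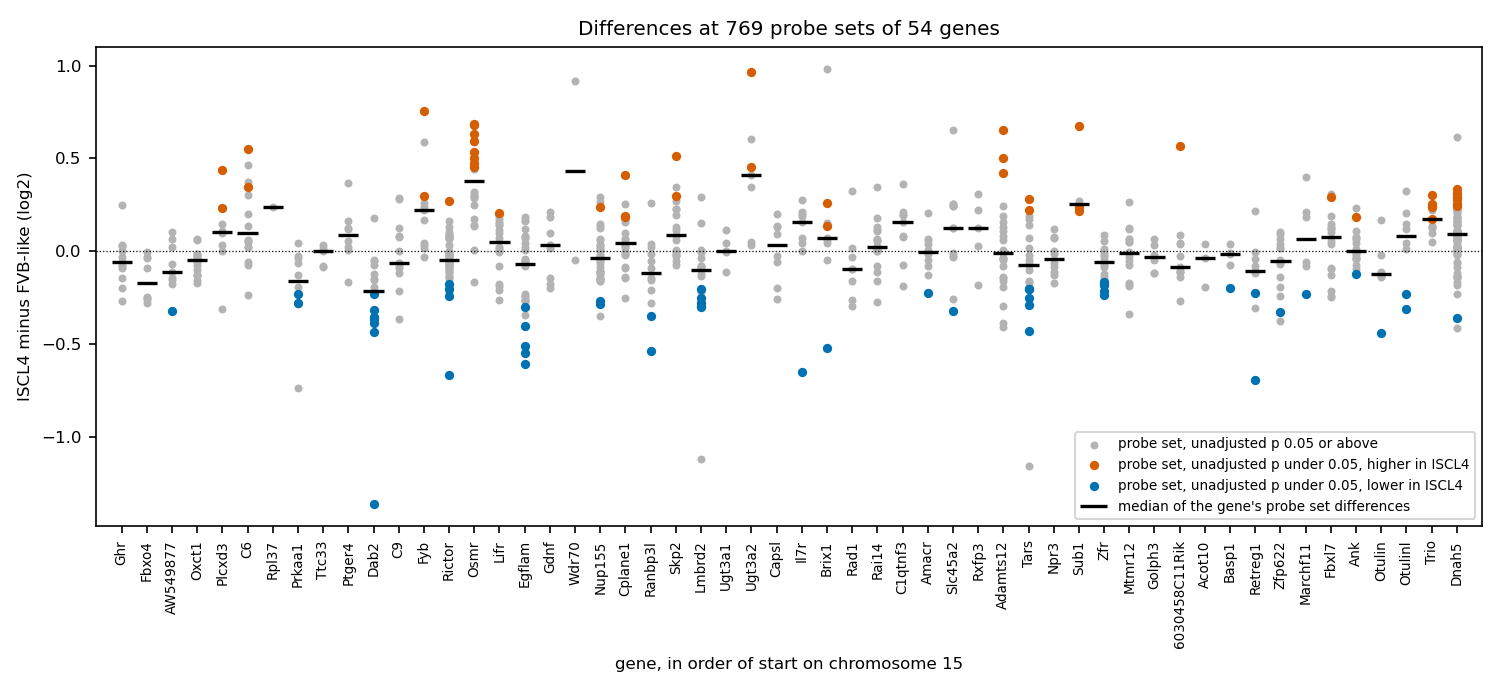
Differences between groups (ISCL4 minus FVB-like, log2, vertical axis) at 769 probe sets of 54 genes, in order of gene start along chromosome 15 (horizontal axis). Grey points are probe sets with an unadjusted p of 0.05 or above, orange and blue points those under 0.05 that were higher and lower in ISCL4 mice, and bars the median of each gene's differences. Orange and blue points are scattered along the whole order, 48 above and 52 below 0, and the lowest point is a Dab2 probe set at -1.36.

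Along the order of genes, values above and below 0 were mixed, apart from a run of small values below 0 from Tars to Zfp622. At gene level these were 9 features in a row, between -0.01 and -0.15, while no more than 3 neighbours in a row were above 0. Sub1, which lies inside that run, has no gene-level feature with 1 symbol, and its 4 probe sets were above 0. Acot10, also inside it, has none either, and 1 of its 3 probe sets was above 0. The order holds member genes only, so genes left out by the selection are skipped, and neighbours in it need not adjoin on the chromosome. Of the first 18 genes, Ghr to Gdnf, 46.7% of 259 probe sets were above 0, with a median of -0.01. The next 18, Wdr70 to Adamts12, had 53.1% of 239 above 0 and a median of 0.0067, and the last 18, Tars to Dnah5, had 54.6% of 271 above 0 and a median of 0.02. Dnah5 holds 86 of those 271. Without it, a choice made after the values were seen, 43.2% of 185 were above 0 and the median was -0.02. The first 18 genes without Rictor, their gene with the most probe sets, had 50.5% of 214 above 0 and a median of 0.0010. The next 18 without Nup155, chosen likewise, had 55.7% of 203 above 0 and a median of 0.02. With all genes kept, the shares with an unadjusted p under 0.05 were 13.5%, 10.9% and 14.4%. By gene, 19 of the 54 had no such probe set, 29 had them in 1 direction and 6 in both, and 9 genes had 5 or more. Probe sets of a gene are read in the same mice and are not replicates of each other, so these are counts and not tests.

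Neighbouring stretches of the same chromosome gave other shares. From 30 to 60 Mb, 213 of 1207 probe sets (17.6%) had an unadjusted p under 0.05 and 8 were called, and from 60 Mb to the end these were 544 of 5238 (10.4%) and 2. Of the 200 probe sets of 8 measured genes that the selection left out of the proximal stretch, 45 (22.5%) had an unadjusted p under 0.05 and 3 were called. The difference in share between stretches was not tested, since probe sets of a gene share their mice.

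**Figure D2:**
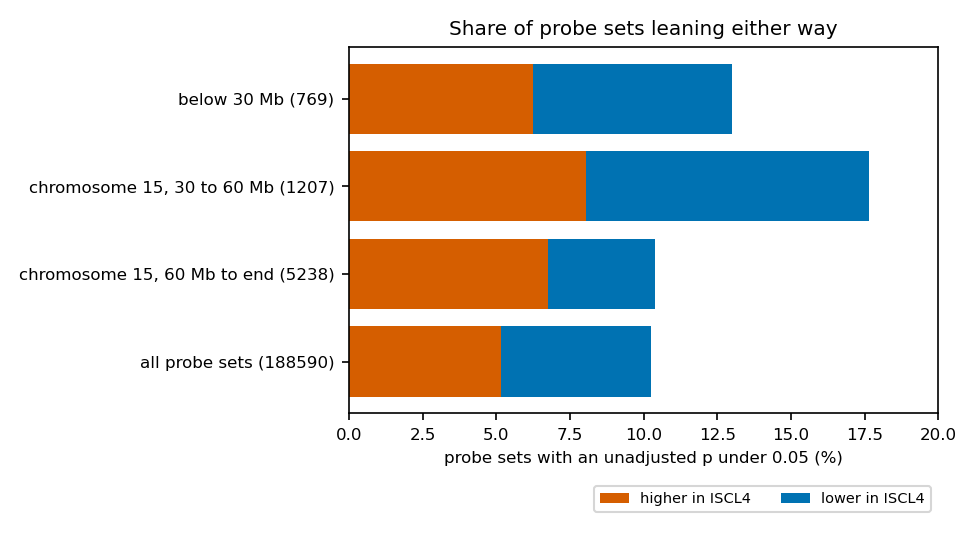
Share of probe sets (percent, horizontal axis) with an unadjusted p under 0.05 in 3 stretches of chromosome 15 and over the whole array, split into those higher (orange) and lower (blue) in ISCL4 mice. The number of probe sets is in brackets. The bar below 30 Mb holds the 769 members only and stands at 13.0%, between 17.6% for 30 to 60 Mb and 10.2% for all probe sets. The 200 proximal probe sets that the selection left out, with 22.5%, are not in that bar.

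Differences beyond 1.5-fold were found at 23 members (2.99%) against 1.06% of all probe sets. Of these 23, 18 were dim, which means a mean signal under 6.20, the 25th percentile of the array, where a value can be background. Among the 552 brighter members, 5 (0.906%) passed 1.5-fold, against 0.274% of brighter probe sets overall. Past 2-fold were 3 members, in Dab2 (probe set 5292869, -1.36), Tars (5201770, -1.16) and Lmbrd2 (4827418, -1.12), beside 148 of all 188590 probe sets. The Tars and Lmbrd2 probe sets among them were dim. Groups without any overlap occurred at 1 member, in 6030458C11Rik, against 0.0546% of all probe sets. Within both array sets at once they occurred at 3 (in 6030458C11Rik, Adamts12 and Lmbrd2), against 0.244%.

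Sub1 encodes a transcriptional coactivator that binds single-stranded DNA, and its probe set 5136221 had the smallest p of the members. In FVB-like replicates 1 to 8 the log2 signal was 6.61, 6.84, 6.68, 6.84, 6.57, 7.25, 6.86 and 6.66, and in ISCL4 replicates 1 to 8 it was 7.06, 7.79, 7.65, 7.34, 7.59, 7.47, 7.63 and 7.18. The groups overlapped through FVB-like replicate 6, which lay above ISCL4 replicates 1 and 8. The means were 6.79 ± 0.22 and 7.46 ± 0.25 (SD, n = 8), a difference of 0.67 (SE 0.12), with limma's adjusted p = 0.084. The difference was 0.71 within array set A and 0.63 within B. This probe set passed the threshold when FVB-like replicate 6 (adjusted p = 0.0426) or ISCL4 replicate 1 (adjusted p = 0.0496) was left out, when dim probe sets were left out (adjusted p = 0.0369) and with a trended, robust variance prior (adjusted p = 0.0252), and over all settings its adjusted p ran from 0.0252 to 0.637. The other 3 Sub1 probe sets were also above 0, by 0.22 (4750994, SE 0.087), 0.24 (4506802, SE 0.10) and 0.27 (4968499, SE 0.47). Sub1 had no feature with 1 symbol in the authors' gene-level summary, and features with several symbols or none were not searched for it. The per-array median of its 4 probe sets, each first centred on its own mean, differed by 0.38 (SE 0.081, adjusted p = 0.0655), whereas without centring it differed by 0.34 (adjusted p = 0.381).

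Probe set 5098270 of 6030458C11Rik, a gene known only by this identifier, was the member whose groups did not overlap. Signals in FVB-like mice ran from 6.45 through a median of 6.93 to 7.17, and in ISCL4 mice from 7.21 through 7.35 to 7.95. The difference was 0.57 (SE 0.11, adjusted p = 0.125), 0.69 within set A and 0.44 within set B. The gene has 11 probe sets, of which 4 were above 0, and its gene-level difference was -0.01 (SE 0.039). The value thus stood at a single probe set and not across the gene.

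Adamts12, a secreted metalloprotease of the extracellular matrix, had its leading value at a dim probe set, 4565320. Signals there ran from 5.13 through 5.47 to 6.14 in FVB-like mice and from 5.70 through 6.12 to 6.86 in ISCL4 mice. The groups overlapped over both sets together and not within either of them. The difference was 0.65 (SE 0.14, adjusted p = 0.161), while the gene-level difference was 0.02 (SE 0.059) and 11 of 26 probe sets were above 0.

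**Figure D3:**
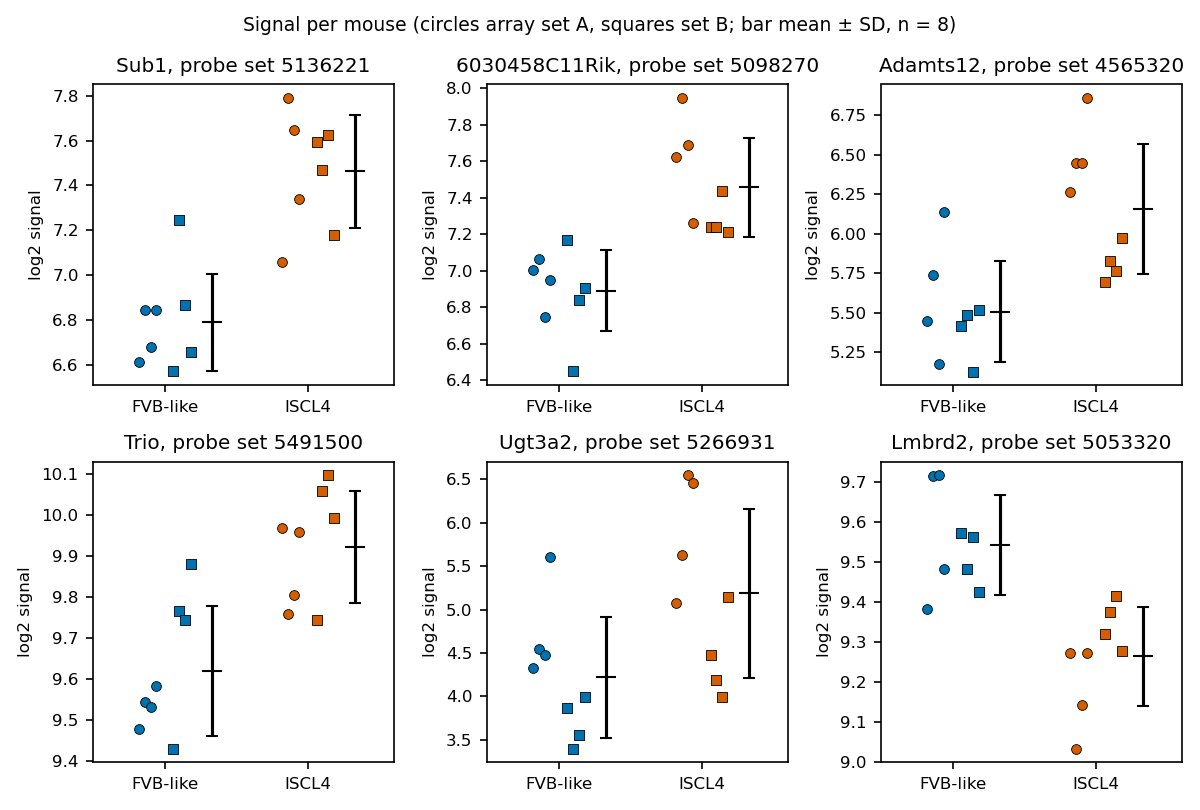
Log2 signal (vertical axes, each with its own range) in every mouse at the 6 member probe sets with the smallest p. Circles are array set A, squares array set B, blue FVB-like and orange ISCL4 mice, and the bar is the mean ± SD of 8 mice. FVB-like and ISCL4 points are fully apart for 6030458C11Rik (highest FVB-like 7.17, lowest ISCL4 7.21) and overlap in the other panels.

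Among class I cytokine and hormone receptors, 4 of 5 listed genes were measured, and 0 were called. Calls in this and the other lists are by the median of each gene's probe sets, by which 0.0571% of all genes were called. The 4 genes had 64 probe sets, 46 of them above 0 (51.1% of all probe sets). An unadjusted p under 0.05 was found at 10 (10.2% of all probe sets). Osmr, the oncostatin M receptor subunit of the interleukin 6 family, held 8 of those 10. Its gene-level signal ran from 6.47 through 6.54 to 7.05 in FVB-like mice and from 6.44 through 6.81 to 7.62 in ISCL4 mice, so every FVB-like value lay inside the ISCL4 range. The difference was 0.37 (SE 0.16, adjusted p = 0.303), 0.61 within set A and 0.13 within set B. Of its 22 probe sets, 21 were above 0, by up to 0.69, and the exception was a dim probe set at -0.17. Its leading probe set, 4447355, ran from 7.24 through 7.70 to 8.05 and from 7.51 through 8.18 to 8.84 (difference 0.53, SE 0.16, adjusted p = 0.326). Its relatives differed by less: Lifr, the leukaemia inhibitory factor receptor, by 0.04 (SE 0.066), Il7r, the interleukin 7 receptor chain of lymphocytes, by 0.06 (SE 0.10), and Ghr, the growth hormone receptor, by -0.03 (SE 0.066).

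Other receptors and secreted factors had 5 measured genes of 6, with 0 called. Of their 41 probe sets, 28 were above 0 and 0 had an unadjusted p under 0.05, against 51.1% and 10.2% of all. Gene-level differences were 0.09 (SE 0.054) for Ptger4, a prostaglandin E2 receptor, and 0.01 (SE 0.089) for Gdnf, a neurotrophic factor. They were 0.11 (SE 0.13) for the secreted C1qtnf3, 0.10 (SE 0.084) for the relaxin-3 receptor Rxfp3, and -0.03 (SE 0.051) for Npr3, the clearance receptor of natriuretic peptides. For the terminal complement genes C6 and C9, whose products join the membrane attack complex, the differences were 0.16 (SE 0.085) and -0.01 (SE 0.070). Most of their 29 probe sets were dim, 14 of 16 in C6 and 12 of 13 in C9.

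**Figure D4:**
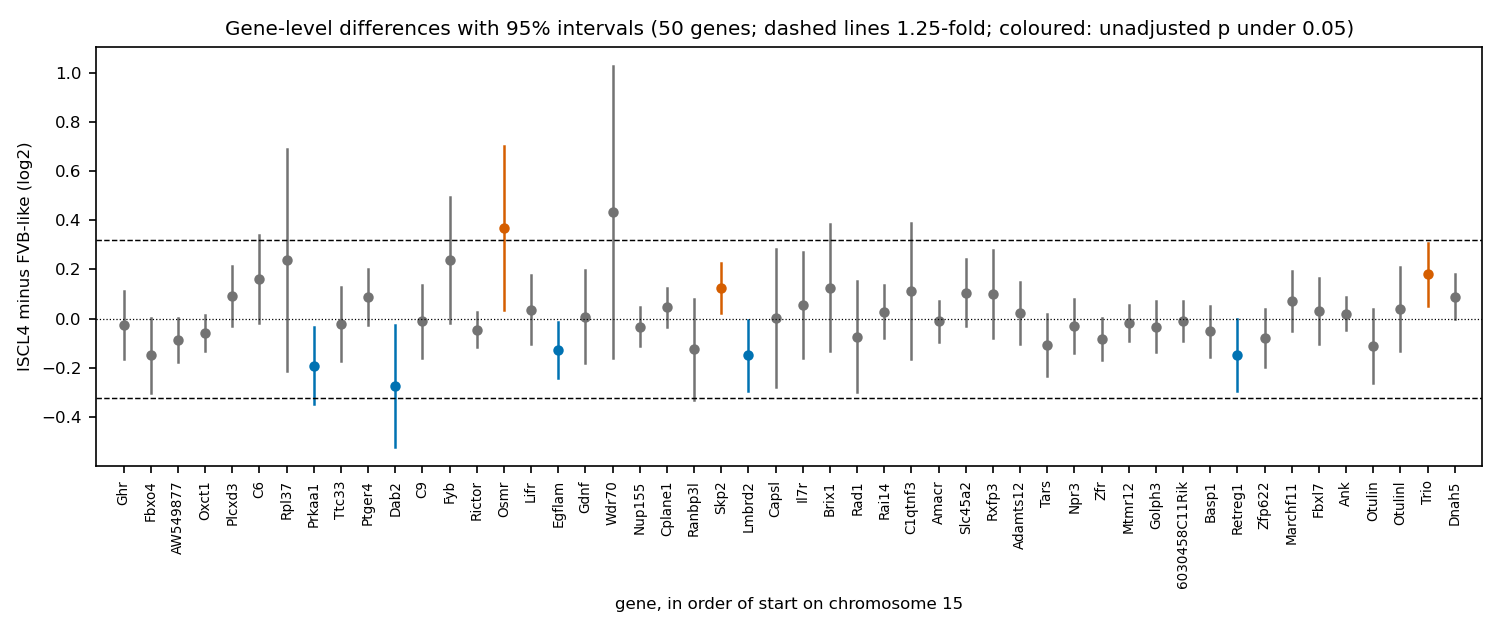
Gene-level differences (ISCL4 minus FVB-like, log2, vertical axis) of the 50 member genes with such a feature, in order of gene start, with 95% intervals. Dashed lines mark 1.25-fold in either direction, and coloured points have an unadjusted p under 0.05 (3 higher in orange, 5 lower in blue). Intervals of 40 of the 50 genes lie within the dashed lines, and the widest is that of Wdr70.

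At gene level 0 of 50 features were called, against 49 of 16755 over the array (0.292%), and 8 of 50 had an unadjusted p under 0.05 (14.4% of all features). Trio, Skp2 and Osmr were the 3 higher, and Prkaa1, Egflam, Dab2, Lmbrd2 and Retreg1 the 5 lower. Half-widths of the 95% intervals had a median of 0.136, or 1.10-fold. The intervals stayed within 1.5-fold for 47 of the 50 genes, all except Rpl37, Osmr and Wdr70, and within 2-fold for 49, all except Wdr70. For Osmr the interval ran from 1.02-fold to 1.63-fold, and for Wdr70 from 0.895-fold to 2.04-fold.

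Kinases and signalling proteins had 7 measured genes of 10, with 0 called. An unadjusted p under 0.05 was found at 23 of 117 probe sets, against 10.2% of all probe sets. Dab2 held 7 of the 23, and Trio and Rictor 5 each. Trio, a signalling protein that acts in axon growth, had gene-level signals from 9.31 through 9.58 to 9.78 in FVB-like mice and from 9.52 through 9.78 to 9.98 in ISCL4 mice. The groups overlapped between 9.52 and 9.78, and the difference of 0.18 (SE 0.061) had an adjusted p = 0.207, the smallest of the 50. All 11 Trio probe sets were above 0, from 0.05 to 0.30, and 5 had an unadjusted p under 0.05. The leading one, 5491500, ran from 9.43 through 9.56 to 9.88 and from 9.74 through 9.96 to 10.1 (difference 0.30, SE 0.075, adjusted p = 0.247). The gene-level difference was 0.28 within set A and 0.08 within set B.

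Dab2, an endocytic adaptor of the LDL receptor family, had its differences on the other side of 0. Its gene-level signal ran from 7.09 through 7.97 to 8.49 in FVB-like mice and from 6.77 through 7.62 to 8.62 in ISCL4 mice. ISCL4 mice held both the lowest value, in array set B, and the highest, in array set A. Over both groups, every value of set A lay above every value of set B. The difference was -0.27 (SE 0.12, adjusted p = 0.303), -0.23 within set A and -0.32 within set B. Of 16 probe sets, 15 were below 0 and 7 had an unadjusted p under 0.05. The difference of the lowest, 5292869, was -1.36 (SE 0.40, adjusted p = 0.325), with signals in FVB-like replicates of 7.56, 7.12, 7.29, 7.39, 7.76, 6.19, 6.95 and 6.80. In ISCL4 replicates 1 to 8 they were 6.95, 6.97, 6.04, 6.84, 5.46, 6.33, 2.98 and 4.62. The low values were those of ISCL4 replicates 5, 7 and 8 in array set B, where the difference was -2.08, against -0.64 in array set A. Another probe set of the gene, 4574780, differed by -0.37 (SE 0.11, adjusted p = 0.329).

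The other signalling genes were Prkaa1, Rictor, Fyb, Plcxd3 and Mtmr12. Prkaa1, a catalytic subunit of the energy sensor AMPK, ran from 8.39 through 8.66 to 9.07 in FVB-like mice and from 8.25 through 8.52 to 8.70 in ISCL4 mice. The ranges overlapped, and the difference was -0.19 (SE 0.073, adjusted p = 0.253). Fyb, an adaptor of T cells and myeloid cells, differed by 0.24 (SE 0.12), with 7 of its 11 probe sets dim. Differences were -0.05 (SE 0.034) for Rictor, the scaffold of mTOR complex 2, 0.09 (SE 0.057) for Plcxd3 and -0.02 (SE 0.035) for the phosphatase-like Mtmr12.

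**Figure D5:**
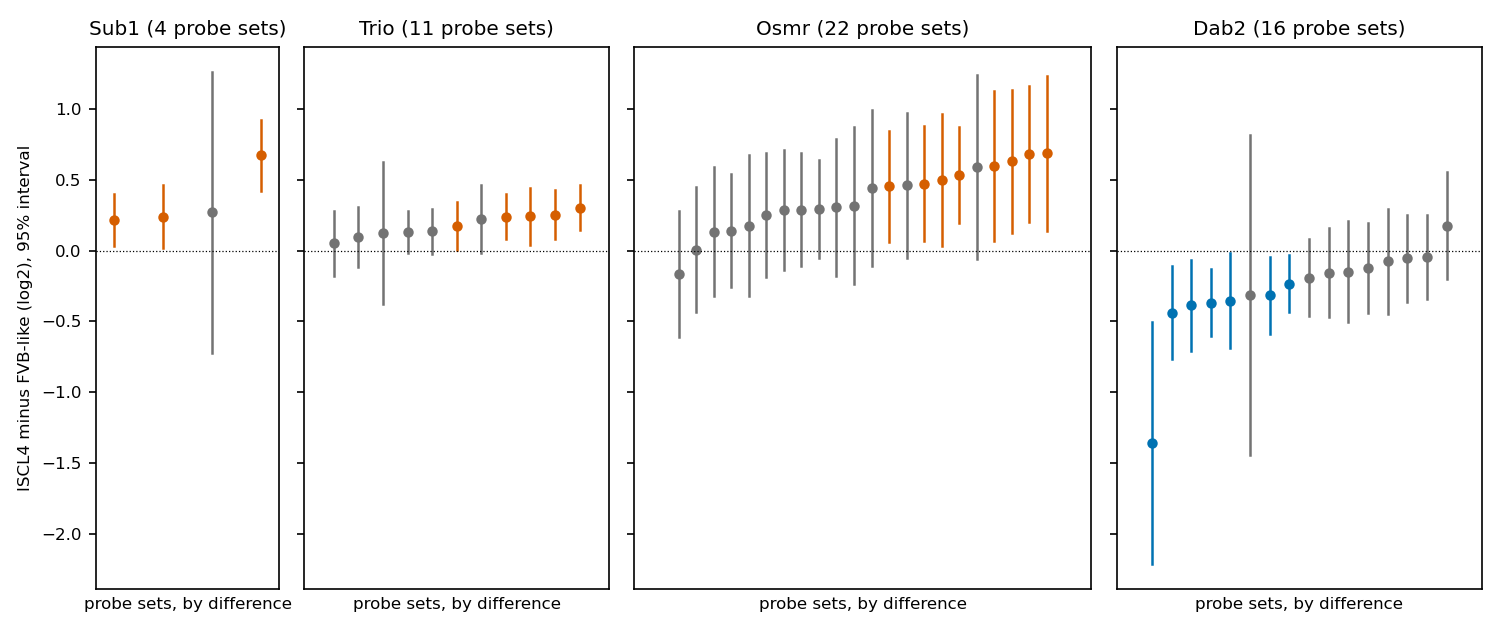
Differences (ISCL4 minus FVB-like, log2, vertical axis) with 95% intervals at every probe set of Sub1, Trio, Osmr and Dab2, sorted by difference within each gene. Coloured points have an unadjusted p under 0.05. All 4 probe sets of Sub1 and all 11 of Trio are above 0, as are 21 of 22 for Osmr, while 15 of 16 for Dab2 are below 0.

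Genes whose probe sets all point one way also occur elsewhere on the array. Among member genes with at least 5 probe sets, 3 of 50 (6%) did so, Fbxo4 lower at 8, Ugt3a2 higher at 7 and Trio higher at 11 probe sets. Over the array this held for 581 of 12342 genes (4.71%).

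Ubiquitin and autophagy genes were all measured (7 of 7), with 0 called. Of their 72 probe sets, 9 had an unadjusted p under 0.05, against 10.2% of all probe sets. Skp2, the F-box protein that marks the cell cycle inhibitor p27 for degradation, ran from 6.88 through 6.92 to 7.13 in FVB-like mice and from 6.94 through 7.07 to 7.28 in ISCL4 mice. The groups overlapped, with a gene-level difference of 0.12 (SE 0.048, adjusted p = 0.258). Retreg1, a receptor for autophagy of the endoplasmic reticulum, ran from 8.15 through 8.48 to 8.67 and from 7.95 through 8.26 to 8.66 (difference -0.15, SE 0.069, adjusted p = 0.337). Another F-box gene, Fbxo4, ran from 6.42 through 6.61 to 6.78 and from 6.27 through 6.46 to 6.72 (difference -0.15, SE 0.072, adjusted p = 0.352), -0.25 within set A and -0.05 within set B. The groups overlapped in both genes. For the F-box gene Fbxl7, probe set 4637652 ran from 6.28 through 6.40 to 6.67 and from 6.30 through 6.70 to 7.05 (difference 0.29, SE 0.088, adjusted p = 0.327), with a gene-level difference of 0.03 (SE 0.063). The remaining differences were -0.11 (SE 0.071) for Otulin, which cleaves linear ubiquitin chains, 0.04 (SE 0.080) for its relative Otulinl and 0.07 (SE 0.057) for the ubiquitin ligase Marchf11.

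Metabolism and transport had 7 measured genes of 11, with 0 called. Of their 90 probe sets, 11 had an unadjusted p under 0.05, against 10.2% of all probe sets. Lmbrd2, which encodes a membrane protein, had its leading value at probe set 5053320, from 9.38 through 9.52 to 9.72 in FVB-like mice and from 9.03 through 9.28 to 9.41 in ISCL4 mice. Its groups overlapped narrowly between 9.38 and 9.41, and within neither array set (difference -0.28, SE 0.072, adjusted p = 0.270). At gene level Lmbrd2 ran from 9.38 through 9.50 to 9.84 and from 9.20 through 9.37 to 9.69 (difference -0.15, SE 0.069, adjusted p = 0.334), with 18 of 21 probe sets below 0. Ugt3a2, a UDP-glycosyltransferase, was read by 7 probe sets, all dim and all above 0. Its leading one, 5266931, ran from 3.40 through 4.16 to 5.61 and from 3.99 through 5.11 to 6.55 (difference 0.97, SE 0.25, adjusted p = 0.263). Those groups overlapped widely over both array sets together, and also within set A. Within set B the highest FVB-like value, 3.988, lay just below the lowest ISCL4 value, 3.990. Ugt3a1, a relative with 3 of 5 probe sets above 0, cannot be told apart from Ugt3a2 where a probe matches both. Differences were -0.06 (SE 0.034) for Oxct1, the entry enzyme of ketone body use, -0.01 (SE 0.040) for Amacr, a racemase of branched fatty acid breakdown, 0.10 (SE 0.064) for the melanosomal transporter Slc45a2 and 0.02 (SE 0.032) for Ank, which exports pyrophosphate.

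Genes of the nucleus, RNA and translation had 9 measured members of 14, Sub1 among them, with 0 called. Of their 116 probe sets, 22 had an unadjusted p under 0.05, against 10.2% of all probe sets. Nup155, a scaffold protein of the nuclear pore, had a leading probe set, 4467439, from 8.50 through 8.80 to 8.85 in FVB-like mice and from 8.74 through 9.0 to 9.30 in ISCL4 mice. The groups overlapped, and the difference of 0.24 (SE 0.067, adjusted p = 0.299) stood beside 14 of 36 probe sets above 0 and a gene-level difference of -0.03 (SE 0.037). Tars, the threonyl-tRNA synthetase, had probe sets with an unadjusted p under 0.05 in both directions, 2 higher and 5 lower. Its gene-level signal ran from 7.35 through 7.55 to 7.73 in FVB-like mice and from 7.25 through 7.42 to 7.57 in ISCL4 mice, which overlapped (difference -0.11, SE 0.060, adjusted p = 0.428). Zfr, a zinc finger protein that binds RNA, had 5 lower and 0 higher of 21 and a gene-level difference of -0.08 (SE 0.041). Brix1, which acts in ribosome assembly, ran from 6.58 through 6.66 to 7.09 and from 6.6 through 6.70 to 7.41. These ranges overlapped between 6.6 and 7.09, and the ISCL4 range reached higher (difference 0.13, SE 0.12, adjusted p = 0.686). The difference was 0.33 within set A and -0.08 within set B. The zinc finger gene Zfp622 differed by -0.08 (SE 0.055) and Rad1, part of the DNA damage clamp, by -0.07 (SE 0.11), with 0.19 within set A and -0.34 within set B. Rpl37, a ribosomal protein with 1 dim probe set, and the WD repeat gene Wdr70, with 2 probe sets, differed by 0.24 (SE 0.21) and 0.43 (SE 0.28). The Wdr70 value came from 1 dim probe set (4724297) at 0.92, while the other probe set (5437984) was at -0.05. Ribosomal protein genes have many near-identical copies in the genome, so the Rpl37 value is uncertain.

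Cilia genes were represented by Dnah5, a heavy chain of the outer dynein arm of motile cilia, and Capsl, 2 measured of 5 listed, with 0 called. Capsl had 4 of 8 probe sets above 0 and a gene-level difference of 0.0027 (SE 0.13), 0.09 within set A and -0.09 within set B. Dnah5 had the most probe sets of the member genes, 86, of which 68 were above 0. An unadjusted p under 0.05 was found at 7, 6 of them higher, against 10.2% of all probe sets. Its gene-level signal ran from 6.01 through 6.13 to 6.30 in FVB-like mice and from 6.13 through 6.25 to 6.30 in ISCL4 mice, so that the lowest ISCL4 value stood near the FVB-like median. The difference was 0.09 (SE 0.044, adjusted p = 0.366), 0.01 within set A and 0.17 within set B. Probe set 4837432 ran from 6.87 through 7.13 to 7.41 and from 7.19 through 7.46 to 7.62 (difference 0.31, SE 0.087, adjusted p = 0.296). Cplane1, a ciliogenesis gene outside the list, had a difference of 0.41 (SE 0.12, adjusted p = 0.307) at probe set 4392776, from 7.82 through 8.04 to 8.82 and from 8.17 through 8.48 to 8.78. Its highest FVB-like value lay above all ISCL4 values, and the gene-level difference was 0.05 (SE 0.037). Of the 86 Dnah5 probe sets 36 were dim. The 2 measured ependymal markers, which come from ciliated cells, had means of 6.22 to 6.68 over FVB-like mice and 6.08 to 6.71 over ISCL4 mice, and their part in these values was not tested.

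Matrix, membrane and cytoskeleton genes were all measured (7 of 7), with 0 called. Of their 100 probe sets, 11 had an unadjusted p under 0.05, against 10.2% of all probe sets. Egflam, the matrix protein pikachurin, had gene-level signals from 5.86 through 5.95 to 6.16 in FVB-like mice and from 5.60 through 5.82 to 5.95 in ISCL4 mice. The groups overlapped between 5.86 and 5.95, with a difference of -0.13 (SE 0.054, adjusted p = 0.290), -0.21 within set A and -0.05 within set B. Its probe set 5235199 ran from 4.71 through 5.38 to 5.79 and from 4.39 through 4.92 to 5.24 (difference -0.55, SE 0.15, adjusted p = 0.301), and 18 of the 28 Egflam probe sets were dim. Differences were -0.05 (SE 0.050) for Basp1, a membrane protein of growth cones, 0.03 (SE 0.052) for the actin-associated Rai14, -0.03 (SE 0.049) for the Golgi protein Golph3, -0.02 (SE 0.071) for Ttc33 and -0.13 (SE 0.098) for Ranbp3l. Acot10, in no list and without a gene-level feature of 1 symbol, had 1 of 3 probe sets above 0. The centred median of the 3 differed by -0.01 (SE 0.095). AW549877, also in no list, had 1 probe set with an unadjusted p under 0.05, 5065155, from 8.71 through 9.02 to 9.34 and from 8.24 through 8.81 to 9.06 (difference -0.32, SE 0.085, adjusted p = 0.281).

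Per gene, the array-wise median over the gene's probe sets gave 0 called of 54, against 9 of 15757 genes over the array (0.0571%), and 10 had an unadjusted p under 0.05 (11.4% of all genes). The smallest adjusted p was 0.207, in Ugt3a2. Since probe sets of a gene differ in level, this median can move without any probe set moving as far, and for 4 of the 54 genes its difference lay outside the range of their own probe sets. With each probe set first centred on its mean, a choice made after the values were seen, 0 of 54 were called (0.26% of all genes) and 9 had an unadjusted p under 0.05 (13.6% of all genes). Over 5 neighbouring member genes, the moving median of these centred differences stayed between -0.05, around AW549877, and 0.12, around Plcxd3.

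Each probe set was then set against the other probe sets of its own gene, which asks whether 1 probe set departs from the rest. Of 766 members in genes with at least 3 probe sets, 0 were called, against 31 of 176440 (0.0176%), and 62 had an unadjusted p under 0.05 (8.06% of all). The smallest adjusted p, 0.128, was that of Adamts12 probe set 4565320, which stood 0.75 (SE 0.13) above the rest of its gene. With centred probe sets, again a choice made after the values were seen, 0 of 766 were called, against 0.0136% of all, and the smallest adjusted p was 0.203. The range of differences within a gene was widest in Dab2 (from -1.36 to 0.18), Brix1 (from -0.52 to 0.98), Tars (from -1.16 to 0.28), Lmbrd2 (from -1.12 to 0.29), Adamts12 (from -0.41 to 0.65) and Dnah5 (from -0.41 to 0.61). In each of these 6 genes at least 1 end of the range was a dim probe set.

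The group difference itself was compared between array sets A and B. The interaction was called at 0 of 769 members and at 0 of all probe sets (0%), and 47 members had an unadjusted p under 0.05 against 6.22% of all probe sets. At gene level the interaction was called at 0 of 50 member features, against 0.00597% of all features, and 2, Rad1 and Basp1 (-0.16 within set A and 0.05 within set B), had an unadjusted p under 0.05. Over the 50 genes, 18 had differences of opposite sign in the 2 sets. The share over all features is not given, so this count cannot be read as particular to the stretch. Groups without overlap were found at 0 of the 50, against 0.119% of all features. Precision was lower per probe set than per gene: the 95% interval stayed within 1.5-fold for 570 of 769 members and within 2-fold for 739. For the other 30 probe sets a 2-fold difference in at least 1 direction was inside the interval.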

How the data were processed

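Biotin-labelled hippocampal RNA of 16 mice was read on exon arrays, and each array appears as 1 gene-level and 1 exon-level sample (32 samples). The deposited values of both levels are on the log2 scale, and per the submitters' processing notes the authors used RMA, Partek 6.6 and build mm9, though which step each served is not recorded in the labels. No detection call was used, so dim values can be background. GEO's platform annotation gave the gene symbols, which were looked up among RefSeq genes of GRCm38.p6 (178914 of 179269 exon-level probe sets with 1 symbol; 1325 had several and 7996 none). Of the 769 members, 192 probe sets of 8 genes (Dnah5, Rictor, Cplane1, Brix1, Retreg1, Otulinl, Otulin and Marchf11) were matched through an older symbol. That assembly gave gene order, the selection and the promoters, and the position of probe sets within genes was not used here.

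Values were fitted with limma 3.58.1 (R 4.3.3, statmod 1.5.0; lmFit and eBayes) on array set and group, on the whole table of each level. Calls needed a p under 0.05 after Benjamini-Hochberg adjustment across the table, and every p printed is from limma. 4 tests were run: per probe set, per gene-level feature, per gene by the array-wise median of its probe sets, and per probe set relative to the median of the others in its gene. All 4 tests were tested on simulated data built from these arrays, where differences of 1.2-fold and 1.5-fold at single probe sets were mostly missed. At 1.5-fold, 42% were recovered at exon level and 28% relative to the gene, and at 2-fold 82% and 70%. At gene level 92% of 1.5-fold differences were recovered, and 82% by the per-gene median. At 1.2-fold these were 46% and 48%. The number of arrays limits the precision. Values given as 3 figures per group are the lowest, median and highest of 8 mice. Titles of the labels call the mice biological replicates.

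The members and the gene lists were chosen with earlier results of these data known. Genes given with full values were those called by any test (none), the 15 probe sets and 10 gene-level features with the smallest p (25 values) and, at gene level, the 6 genes with the widest range of differences. Other member genes are given by list or, where they are in no list, beside one. Probe sets past 2-fold, genes with all probe sets in 1 direction, and the other probe sets of Sub1 were added after their values were seen. Replicate numbers are shared between groups. Same-numbered mice deviated together from their group means (correlations 0.221 to 0.421 over 8 pairs). Within array sets all 8 correlations were above 0 (0.0144 to 0.144), and 3 were over 0.1. These values do not settle whether the numbers pair mice. The reported fits did not pair mice beyond the array set, and the replicate block, which does, was run as an alternative. Alternatives covered the array set, scaling, dim features, the variance prior, array weights, the replicate block and leaving out each mouse. Figures were drawn with matplotlib.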

Additional observations from a re-analysis of the deposited data

Results flagged for a closer look

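Behind the genes given with full values were 50 groups of 8 mice. In 3 of them 1 mouse stood far from the others, by Dixon's ratio of its gap to the group's range. That ratio flags about 5% of independent groups drawn from 1 normal spread. The groups here were picked by small p, share mice and hold both array sets, so 3 of 50 cannot be set against that share. At Sub1 probe set 5136221, FVB-like replicate 6 read 7.247 where the nearest FVB-like mouse read 6.864, and without that mouse the adjusted p of the probe set was 0.0426 against 0.084 with it. At Cplane1 probe set 4392776, FVB-like replicate 3 read 8.823 and the nearest mouse 8.162, and without it the adjusted p was 0.116 against 0.307 with it. At the gene-level feature of Egflam (6833788), FVB-like replicate 3 read 6.163 and the nearest mouse 5.968, and without it the difference was -0.10 against -0.13 with it (adjusted p = 0.421 against 0.290). The cause was not tested in any of them.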

How the results depend on the processing

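The counts of called members were 0 in all 4 tests, and they stayed at 0 under every alternative run at gene level, by the per-gene median and relative to the gene. The mean in place of the median and the centred probe sets were themselves single alternatives, not combined with the others. At exon level the count was 1, the Sub1 probe set 5136221, without dim features and with the trended, robust prior (47 probe sets of the whole array were called in the reported fit, 99 without dim features, where fewer were tested, and 273 with that prior; why the prior adds calls was not tested). Leaving out single mice gave 0 to 1, with 1 without FVB-like replicate 6 or ISCL4 replicate 1. The Sub1 difference itself was 0.67 under both of the first settings, 0.74 without FVB-like replicate 6 and 0.73 without ISCL4 replicate 1. The median member difference ranged from -0.0015 to 0.0098 over single mice left out. It was -0.0107 without dim features and -0.0061 in array set B alone, and these shifts were not tested. With the replicate block in place of the array set, 0 members were called in each test and 118 of 769 (15.3%) had an unadjusted p under 0.05, against 11.5% of all probe sets. The block changed no member's call, while calls went from 47 to 30 over the array, from 3 to 1 in the genes left out, from 8 to 5 between 30 and 60 Mb and from 2 to 1 beyond. Without array set in the fit, 61 of 769 members (7.93%) and 5.57% of all probe sets had an unadjusted p under 0.05, and 23 of all were called. None of the 25 values given in full turned direction under any alternative run. Of the 50 gene-level differences, 18 had opposite signs in the 2 array sets, Rad1, Brix1, Il7r and Basp1 among them. That count has no share over all features beside it. Fits on array set A alone (62 of 769, 8.06%, at an unadjusted p under 0.05) or B alone (86, 11.2%) had 4 mice per group and called 1 and 13 probe sets of the whole array. Dim signal limits 217 of the 769 members (28.2%), where a value can be background.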
